A study of Rattus norvegicus with 10 samples.

Results

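The Nr4a genes encode a small subfamily of orphan nuclear receptors, and their transcripts were followed in the neurointermediate lobe of the rat pituitary with and without water deprivation. The members are Nr4a1 (Nur77), Nr4a2 (Nurr1) and Nr4a3, 3 of the 14217 genes that the arrays name by a probe set with 1 symbol. They are read by 6 of 31042 probe sets: 1 for Nr4a1, 2 for Nr4a2 and 3 for Nr4a3. The family was chosen from its fall in the dehydrated group on these same arrays, so the group differences of its members are given below as a description, without a test. All 6 probe sets passed the filter on low values, which was set on the mean over all arrays. Of them, 1387410_at of Nr4a2 and 1369217_at of Nr4a3 passed only through the control group, since their dehydrated means (signals of 16.9 and 19.5) lay below the dimmest kept level of 22.4.

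Male Sprague Dawley rats of 10 to 12 weeks were either dehydrated for 3 days or left as controls. There were 5 arrays per group, 1 for each pool of 5 animals, so that errors are those between pools. The title and all sample labels name the neurointermediate lobe, whereas the design text names the supraoptic nucleus. The lobe joins the neural lobe, with vasopressin and oxytocin axons and glial pituicytes, to the intermediate lobe of melanotrophs.

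NR4A proteins differ from most nuclear receptors in that their ligand pocket is filled by bulky side chains, so their activity follows mainly from how much protein is made. Their genes are immediate early genes: cAMP acting through protein kinase A and CREB, calcium acting through MEF2, and the ERK kinases switch them on within minutes, and the transcripts are short-lived. The proteins bind as monomers to an element called the NBRE, and Nr4a1 and Nr4a2 also pair with retinoid X receptors. In pituitary cells that make pro-opiomelanocortin, Nr4a1 is known as a relay between corticotropin-releasing hormone and the Pomc gene.

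Promoter sequences are shown for Nr4a1 and Nr4a2 because cAMP response elements are the known entry point of CREB. RefSeq (build GRCr8) gave windows for these 2 of the 3 members. The windows are the 250 bases before the start that the table uses, chr7:134259888-134260137 on the plus strand for Nr4a1 and chr3:62104888-62105137 on the minus strand for Nr4a2. Both starts lie inside the annotated span of the gene (134247153 to 134268044 on chromosome 7 and 62098739 to 62115926 on chromosome 3). Other starts therefore exist, and seen from the outermost one each window lies within the gene. Capitals mark half-sites of the cAMP response element, CGTCA or, on the other strand, TGACG.
Nr4a1: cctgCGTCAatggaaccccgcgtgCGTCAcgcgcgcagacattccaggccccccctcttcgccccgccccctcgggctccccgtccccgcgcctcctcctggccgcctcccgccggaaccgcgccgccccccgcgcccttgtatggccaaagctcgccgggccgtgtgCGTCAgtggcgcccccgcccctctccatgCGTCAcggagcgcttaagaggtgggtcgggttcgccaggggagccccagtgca
Nr4a2: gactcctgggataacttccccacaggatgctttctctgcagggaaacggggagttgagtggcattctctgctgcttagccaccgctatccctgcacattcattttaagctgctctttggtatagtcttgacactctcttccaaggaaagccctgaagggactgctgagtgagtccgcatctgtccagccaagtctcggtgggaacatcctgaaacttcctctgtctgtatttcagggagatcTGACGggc

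The Nr4a1 window held 4 half-sites, all in the same orientation, whose first bases lay at -246, -226, -82 and -53 from the start. The Nr4a2 window held 1, at -8. Of 27457 windows of the same length, 19.0% held at least 1 half-site and 0.186% held 4 or more. Neither window held the full palindrome TGACGTCA (1.70% of all windows, each of which also counts as half-sites on both strands), the NBRE motif AAAGGTCA on either strand (1.11%), a CArG box (1.50%) or a MEF2 site (3.07%). These matches describe letters in a window only.

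Nr4a1, the member best known from pituitary cells, is read by 1 probe set, 1386935_at. Its signals on the control arrays 1 to 5 were 893, 1092, 958, 667 and 1064, and on the dehydrated arrays 302, 170, 215, 279 and 289. Every dehydrated array lay below every control array, and the lowest control was 365 units above the highest dehydrated array. The means were 935 ± 170 and 251 ± 56.5 (SD, n = 5), a log2 change of -1.89 ± 0.15 SE (95% interval -2.21 to -1.56), which is 3.69-fold lower on the log2(signal + 5) scale. Within the control group control 4 was the low array, and within the dehydrated group dehydrated 2 was.

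Nr4a2, which in midbrain neurons is required for the dopaminergic phenotype, has a brighter and a dimmer probe set. On the brighter, 1369007_at, controls 1 to 5 read 372, 443, 272, 212 and 397 and the dehydrated arrays 117, 61.4, 59.1, 80.4 and 88.7. The groups did not overlap on this probe set, with dehydrated 1 the nearest to the controls. The log2 change was -1.99 ± 0.20 SE (95% interval -2.40 to -1.57), or 3.96-fold lower, with means of 339 ± 94.7 and 81.3 ± 23.5 (SD, n = 5).

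On the dimmer Nr4a2 probe set, 1387410_at, the controls read 60.7, 118, 121, 48.7 and 125 and the dehydrated arrays 26.3, 2.60, 16.1, 18.7 and 20.7. The groups again did not overlap, but controls 1 and 4 lay apart from the other 3 controls. The log2 change was -2.24 ± 0.34 SE (95% interval -2.95 to -1.52). Dehydrated 2 was the lowest array by far, and signals this small depend on the constant added before the logarithm: the change was -2.59 with a pseudocount of 1 and -1.73 with 16. The fall on the brighter probe set was smaller in size than that on the dimmer by 0.25 ± 0.35 SE, less than 1 SE, so the probe sets of Nr4a2 gave the same direction and sizes that their errors do not separate.

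Nr4a3 is read by 3 probe sets, which did not give the same picture. On 1369067_at controls 1 to 5 read 77.2, 138, 162, 73.8 and 219, and the dehydrated arrays 36.4, 39.1, 30.2, 34.4 and 41.1. The dehydrated arrays were close together and all below the controls, which spread 2.97-fold from lowest to highest against 1.36-fold among the dehydrated arrays. The log2 change was -1.64 ± 0.23 SE (95% interval -2.14 to -1.15), 3.12-fold lower, with means of 134 ± 61.1 and 36.2 ± 4.23 (SD, n = 5).

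On the second Nr4a3 probe set, 1393389_at, the controls read 65.7, 77.4, 142, 67.0 and 164 and the dehydrated arrays 55.7, 52.9, 45.0, 45.3 and 29.5. The groups did not overlap, although the gap between the lowest control and the highest dehydrated array was only 10.0 units. The log2 change was -1.02 ± 0.24 SE (95% interval -1.52 to -0.52). It was smaller in size than that of 1369067_at by 0.62 log2 units, with an SE of 0.22 over the arrays. On both probe sets controls 3 and 5 were the highest arrays.

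The third Nr4a3 probe set, 1369217_at, has no target accession in the platform annotation. Its controls read 131, 84.5, 16.1, 20.1 and 52.5 and its dehydrated arrays 41.5, 13.2, 14.6, 17.6 and 10.5. The groups overlapped: controls 3 and 4 lay within the range of the dehydrated arrays, and control 3, the second highest control on the other Nr4a3 probe sets, was the lowest here. The log2 change was -1.20 ± 0.43 SE, with a 95% interval from -2.12 to -0.28 that covers the values of the other probe sets. Of 25 pairs of a control and a dehydrated array, the control was higher in 22.

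**Figure D1:**
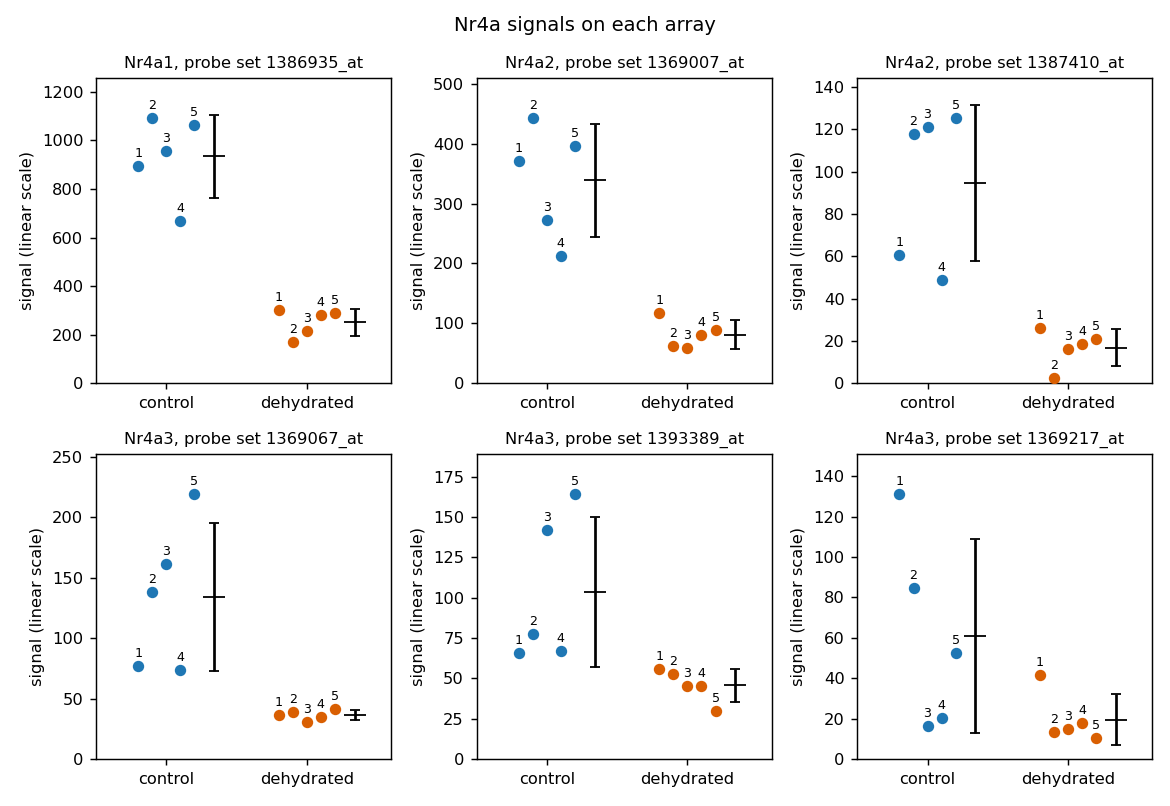
Linear signal of the 6 Nr4a probe sets on each array, 1 panel per probe set, with control arrays in blue, dehydrated arrays in orange, numbers naming the array, and a dash with bars for the mean ± SD (n = 5). On 5 panels the groups do not overlap, and on 1369217_at of Nr4a3 controls 3 and 4 lie among the dehydrated arrays.

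All 6 probe sets were lower in the dehydrated group. In the comparison over all kept probe sets, limma passed 5 of the 6 at an adjusted p under 0.05, all but 1369217_at, while 2.46% of all 18625 kept probe sets passed in either direction, 0.784% of them lower and 1.68% higher. Of the 6, 5 had no overlap with every dehydrated array below every control, as had 1.81% of all kept probe sets. The call of 1393389_at ended under 7 of 20 alternatives: with no filter, with the 3' to 5' ratio of control signals as a covariate, without dehydrated 3, dehydrated 4, control 3 or control 5, and without dehydrated 2 and control 5 together. The members were chosen on this comparison, so nothing is read from these counts. Their calls were not read without an intensity trend or with a robust variance model. Over all kept probe sets 312 passed as higher and 146 as lower (68.1% higher). The share was 80.1% after centring each array on its median, 56.1% without dehydrated 5 (653 higher, 510 lower), and 47.6% without dehydrated 5 and control 1 (666 higher, 732 lower), where more probe sets were lower than higher. The median change of all kept probe sets was -0.01.

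Between the members, the changes of the brightest probe set of each gene were close. Nr4a1 differed from Nr4a2 by 0.10 ± 0.14 SE and from Nr4a3 by -0.24 ± 0.27 SE on the log2 scale, and Nr4a2 differed from Nr4a3 by -0.34 ± 0.31 SE. None of these 3 differences was large beside its SE. For Nr4a3 this depends on the probe set used. On 1393389_at its change was -1.02, farther from the -1.89 of Nr4a1 and the -1.99 of Nr4a2, and those differences were not computed. Levels of different probe sets were not compared, since probes differ in how strongly they bind.

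**Figure D2:**
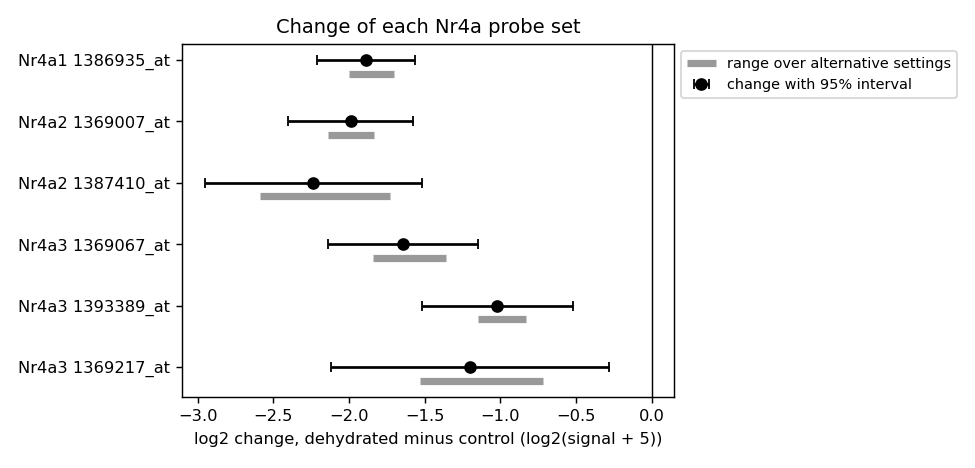
Log2 change of each Nr4a probe set, dehydrated minus control, with its 95% interval (black) and the range of the change over the alternative settings (grey). The changes run from -2.24 for 1387410_at to -1.02 for 1393389_at. The members were chosen on this contrast, so the intervals describe the precision of each change and are not a test against 0.

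The size of the members' changes was followed beside RNA integrity. As a measure of RNA shortening, the mean 3' to 5' log2 ratio over the GAPDH and beta-actin control probe sets was taken on each array. It ranged from 1.61 to 2.67 in the dehydrated and from 1.26 to 2.52 in the control group (mean difference 0.37, exact permutation p = 0.214, adjusted over 8 array measures 0.286). The difference was 0.24 to 0.56 without 1 array and did not pass. Without dehydrated 5 and control 1, a pair chosen after the data were seen, it was 0.69 and passed (exact permutation, adjusted p = 0.0381). They held the lowest dehydrated and the highest control ratio, so leaving them out had to widen the difference. Nothing is read from that p-value. Dehydrated 5, whose ratio of 1.61 lay below those of 3 controls, read 289 for Nr4a1 and 88.7 for Nr4a2 on 1369007_at, below all controls. Control 1, whose ratio of 2.52 lay above those of 4 dehydrated arrays, read 893 and 372, above all dehydrated arrays. The members were chosen for their fall and the groups did not overlap on these probe sets. The same therefore holds for every array, and nothing is read from it. With the ratio as a covariate the changes were -1.73 for Nr4a1, -1.92 and -1.80 for Nr4a2 on 1369007_at and 1387410_at, and -1.36, -0.89 and -1.53 for Nr4a3 on 1369067_at, 1393389_at and 1369217_at. The largest shift was on 1387410_at, from -2.24 to -1.80.

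Within the groups, which the choice of the members did not use, Nr4a3 tended to be lower on arrays with a higher ratio, but no relation held after adjustment. With each group's mean taken off, the correlation of Nr4a3 (1369067_at) with the ratio over 10 arrays was r = -0.69 (exact permutation p = 0.0393, adjusted p = 0.305; Spearman's rho = -0.75, exact permutation p = 0.0307, adjusted 0.196). Without control 5 and dehydrated 2, the arrays farthest from the median ratio, r was -0.75. For Nr4a1 it was -0.56 (exact permutation p = 0.108, adjusted 0.358; rho = -0.53, p = 0.143, adjusted 0.505) and -0.25 without those arrays. For Nr4a2 it was -0.19 (exact permutation p = 0.634, adjusted 0.728; rho = -0.20, p = 0.603, adjusted 0.755) and 0.14 without them. The part of RNA integrity in the members' group differences was not tested beyond these values.

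**Figure D3:**
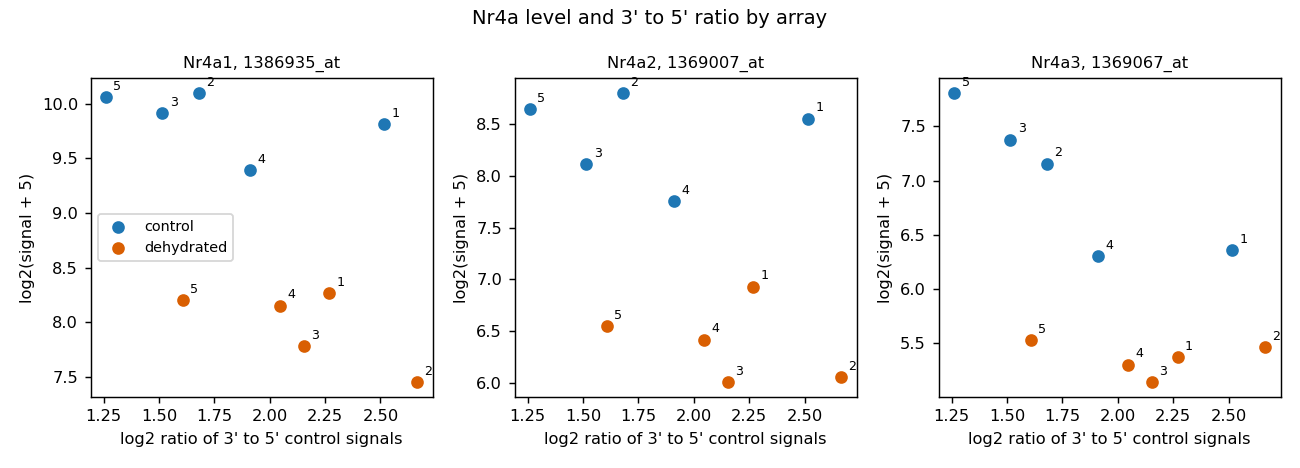
Level of the brightest probe set of each Nr4a gene, as log2(signal + 5), against the log2 ratio of 3' to 5' control signals on the same array, with control arrays in blue, dehydrated arrays in orange and numbers naming the array. Control 1 and dehydrated 5 lie within the ratio range of the other group. The members were chosen for their fall and the groups do not overlap in level here, so every array stays with its own group.

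Array by array, the members' levels were also compared within the groups. With group means taken off, Nr4a1 and Nr4a2 (1369007_at) correlated at r = 0.85 over 10 arrays (exact permutation p = 0.00368, adjusted p over 31 pairs = 0.114; rho = 0.87, exact permutation p = 0.00264, adjusted 0.0818). Leaving out dehydrated 2 and control 2, the arrays farthest from the median of Nr4a1, gave r = 0.86. The relation did not pass after adjustment on the deposited scale, and it passed after centring each array on its median (r = 0.84, adjusted p = 0.0474 by exact permutation). Controls 2 and 5 and dehydrated 1, 4 and 5 were above their group's mean for both genes, and control 4, dehydrated 2 and dehydrated 3 were below it for both.

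Nr4a1 and Nr4a3 correlated at r = 0.50 (exact permutation p = 0.102, adjusted 0.358; rho = 0.47, p = 0.158, adjusted 0.505), and at 0.75 without dehydrated 2 and control 2. Nr4a2 and Nr4a3 correlated at r = 0.38 (exact permutation p = 0.349, adjusted 0.554; rho = 0.41, p = 0.293, adjusted 0.534), and at 0.32 without control 2 and dehydrated 3. Whether these correlations differ from that of Nr4a1 and Nr4a2 was not tested.

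Probe sets of the same gene were compared in the same way. Those of Nr4a2 correlated within groups at r = 0.62 (exact permutation p = 0.0798, adjusted 0.358; rho = 0.72, p = 0.0321, adjusted 0.196), and at 0.68 without control 2 and dehydrated 3. For Nr4a3, 1369067_at and 1393389_at correlated at r = 0.75 (exact permutation p = 0.0999, adjusted 0.358; rho = 0.52, p = 0.219, adjusted 0.505), which rested on controls 3 and 5, since r was 0.10 without them. The third probe set, 1369217_at, correlated with the others at r = -0.13 and -0.14 (exact permutation p = 0.722 and 0.731, both 0.782 after adjustment; rho = -0.16 and -0.02), and at 0.22 and 0.39 without controls 3 and 5. These values do not settle whether it tracked the other Nr4a3 probe sets. Its correlations turned positive without control 1 or control 3. The other 2 probe sets were themselves at 0.10 with each other without controls 3 and 5.

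**Figure D4:**
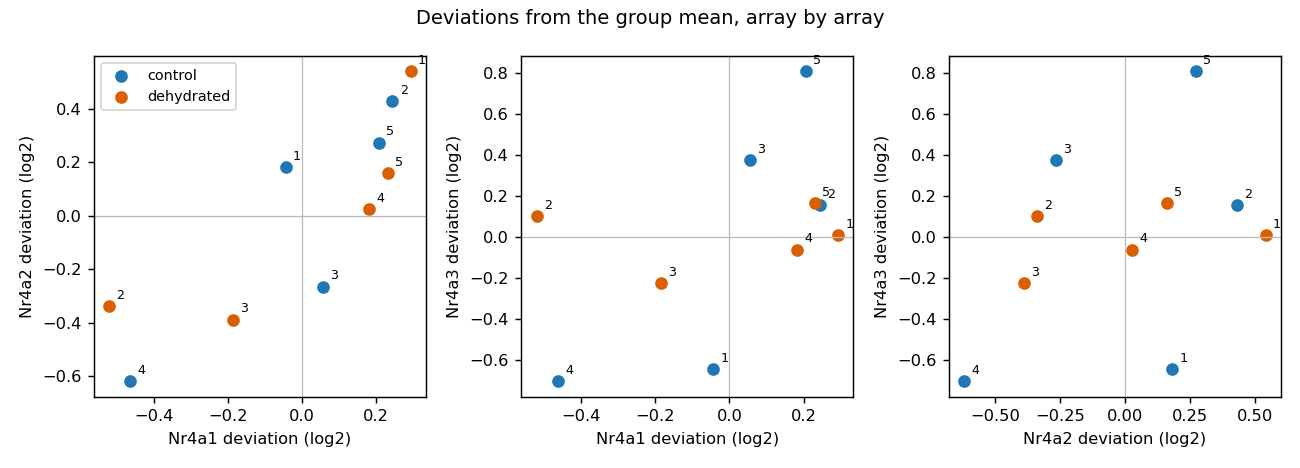
Deviation of each array from its group's mean log2 level for the 3 pairs of Nr4a genes (brightest probe set of each), with control arrays in blue, dehydrated arrays in orange and numbers naming the array. The points of Nr4a1 and Nr4a2 follow a rising line (r = 0.85), and those of Nr4a2 and Nr4a3 are scattered (r = 0.38).

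The tissue was described by its markers. Of 51 marker genes of 7 cell types, 48 were on the arrays and 44 had a kept probe set. Their lowest group mean signal was 31.3. The dimmest kept level was 22.4, so the filter itself excludes markers near 0 and this is no check of presence. Among melanotroph markers, Pomc read 735 ± 258 after dehydration and 755 ± 111 in controls (SD, n = 5). The pro-opiomelanocortin regulator Tbx19 read 588 and 594. The anterior lobe hormone genes Gh1 and Prl, which belong to neither part of the lobe, had mean signals of 1301 to 2521.

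Marker levels also differed between the groups. The mean log2 level of the 4 measured of 6 melanotroph markers spanned 9.29 to 9.46 in dehydrated and 9.54 to 9.72 in control arrays. Of the 4, Pcsk2 fell by 0.88, and the other 3 changed by -0.09 to -0.01 and did not pass. The mean log2 level of the 10 of 10 pituicyte and astroglia markers ranged from 9.03 to 9.26 and from 8.78 to 9.02, and 3 of them rose. Of these, the glial filament gene Gfap changed by 2.38, Slc1a3 by 0.36 and Lhx2 by 0.39, while 4 of the 10 had a negative change that did not pass. Of the 7 marker lists, 5 did not overlap between the groups (exact permutation p = 0.00794, the smallest that 252 orders allow, adjusted 0.0127 for each). The lists were written with earlier results of these data known, so these p-values are descriptions. Large changes of 1 gene, as of Pcsk2 and Gfap, weigh heavily in a list's mean. Besides those 2 lists, the neurosecretory peptides, the endothelial and the fibroblast markers did not overlap, all 3 higher in the dehydrated group. Their mean log2 levels in the dehydrated against the control group were 8.87 ± 0.15 and 8.29 ± 0.05 for the peptides, 6.96 ± 0.09 and 6.58 ± 0.16 for endothelium and 9.28 ± 0.12 and 9.02 ± 0.08 for fibroblasts (SD, n = 5). Within these 3 lists, 2 of 5 measured peptide genes rose (Avp by 1.38 and Oxt by 0.83). So did 4 of 8 endothelial (Flt1, Kdr, Emcn and Rgs5) and 2 of 6 fibroblast markers (Dcn and Lum). Over all kept probe sets 1.68% rose and 0.784% fell. The others did not pass, and 2 endothelial markers and 1 fibroblast marker had a negative change. Macrophage markers stood at 7.41 ± 0.20 and 7.51 ± 0.16 (SD, n = 5, exact permutation p = 0.452, adjusted 0.476). Of their 5 measured genes only Aif1 passed, higher by 0.42, while Cd68 changed by -0.74 and did not pass. In pooled tissue, fewer cells of a type and less RNA per cell cannot be told apart. Within groups the melanotroph level correlated with Nr4a1 at r = 0.27, with Nr4a2 at 0.47 and with Nr4a3 at 0.42 (exact permutation p = 0.482, 0.20 and 0.229, adjusted 0.603, 0.443 and 0.443; rho = 0.10, 0.33 and 0.38), and without controls 1 and 3 at 0.30, 0.58 and 0.70. The part of cell makeup in the members' group differences was not tested.

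Anterior lobe markers, which can be carried over in dissection, did not move alike. Fshb, the beta subunit of follicle-stimulating hormone, fell by 0.86 without overlap (limma adjusted p = 0.00507), as did its second kept probe set by 0.95, and the other 5 did not pass, Tshb among them at 1.17 (limma adjusted p = 0.260). The mean log2 level of its 6 measured markers was 9.05 ± 0.38 after dehydration and 8.84 ± 0.60 in controls (SD, n = 5, exact permutation p = 0.476, adjusted 0.476), and the order of the groups turned without control 5. Within groups, arrays with a higher level had less Nr4a2 (r = -0.74, exact permutation p = 0.0285, adjusted 0.305; rho = -0.72, p = 0.0313, adjusted 0.196) and less Nr4a1 (r = -0.69, exact permutation p = 0.0335, adjusted 0.305; rho = -0.73, p = 0.0242, adjusted 0.196), neither of which passed after adjustment. Without control 5 and dehydrated 2 these were -0.80 and -0.51. For Nr4a3 r was -0.35 (exact permutation p = 0.486, adjusted 0.603; rho = -0.22, p = 0.606, adjusted 0.755), and 0.18 without those arrays.

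The genes around the family were then followed, from the signals that switch Nr4a genes on to the genes their proteins act on. On the route from cAMP to CREB, 2 of 22 measured genes fell and none rose (beside 0.784% and 1.68% of all kept probe sets), with a median log2 change of -0.08 beside -0.01 over all kept probe sets. The salt-inducible kinase gene Sik1, itself a CREB target whose product restrains the CREB coactivators, fell by 0.69 from 217 ± 31.4 to 134 ± 26.5 (SD, n = 5, limma adjusted p = 0.0104), without overlap. Crem, which also encodes the inducible cAMP early repressor, fell by 0.37 (limma adjusted p = 0.0479), a call that ended under 13 of 23 alternatives, among them leaving out dehydrated 1, 2 or 3 or any control (adjusted p up to 0.138). All 6 kept Crem probe sets had a negative change, from -0.85 to -0.10, and 2 of them passed. Creb1 itself changed by -0.12 (adjusted p = 0.611), and the catalytic and regulatory subunits of protein kinase A and the CRTC coactivators did not pass.

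On the calcium and ERK routes 1 of 26 measured genes fell and none rose (median 0.09), a share near the 2.46% that passed over all kept probe sets. This was Ppp3r1, the regulatory subunit of calcineurin, which fell by 0.47 from 711 ± 83.9 to 512 ± 54.2 (SD, n = 5, limma adjusted p = 0.00981). Its other 2 kept probe sets changed by -0.29 and 0.17 and did not pass, and the call ended when its probe sets were averaged (-0.20, limma adjusted p = 0.471). Mef2d, a factor that binds Nr4a1 promoters in lymphocytes, changed by 0.10 (adjusted p = 0.728, 95% interval -0.17 to 0.38).

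Among 20 measured genes that share the rapid induction of the Nr4a genes, 6 fell, 2 rose and 12 did not pass (median -0.03), beside 0.784% of all kept probe sets that fell and 1.68% that rose. These genes were already known to differ in these data, so the count is a description of the set around the members. The phosphatase gene Dusp1 fell by 1.33 from 726 ± 231 to 276 ± 47.8 (SD, n = 5, limma adjusted p = 0.000822), and the small GTPase gene Gem fell by 1.17 from 535 ± 146 to 226 ± 18.6 (limma adjusted p = 0.000822), each without overlap. Fos and Egr1 fell by 1.46 and 0.99 (limma adjusted p = 0.00862 and 0.00951), and both calls ended with a robust variance model (limma adjusted p = 0.0731 and 0.0505). The call of Egr1 also ended without an intensity trend, and that of Fos without dehydrated 2 and control 5.

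Egr2, by contrast, rose by 1.29 from 31.2 ± 7.24 to 83.1 ± 15.3 (SD, n = 5, limma adjusted p = 0.000293), without overlap. The other member that rose was Dusp6, and the other 2 that fell were Junb and Rgs2, all named after their values were seen. The lowest value of this list was -1.46, and the changes of the 6 Nr4a probe sets ran from -2.24 to -1.02. The members were chosen for their fall, so nothing is read from the order of these values. Without dehydrated 2 and control 5 the list held 3 genes that fell and 2 that rose.

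Among dimer partners and coregulators of the NR4A proteins none of 11 measured genes passed (median 0.00), and 0 had an unadjusted p under 0.05. Over all kept probe sets 2.46% passed, so none passing in a list this short is near that share. The retinoid X receptor genes Rxrb and Rxrg, which encode dimer partners of Nr4a1 and Nr4a2, changed by 0.13 and -0.25 (95% intervals -0.27 to 0.53 and -0.65 to 0.15; named after their values were seen). The smallest p belonged to Crebbp, the CREB-binding coactivator, which changed by -0.20 (limma adjusted p = 0.334). Of 20 other nuclear receptors 0 passed (median -0.05), again near the share over all kept probe sets, and 3 had an unadjusted p under 0.05. The nearest was Nr1h3, the oxysterol receptor, at 0.55 (limma adjusted p = 0.0659), which passed after median centring, with probe sets averaged or without dehydrated 2 (adjusted p down to 0.0391).

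Of 27 genes reported elsewhere as targets of NR4A proteins in other tissues, 11 had a kept probe set, of which 1 fell and none rose (median -0.09), beside 0.784% and 1.68% of all kept probe sets. The gene was Eno3, the muscle enolase, which fell by 0.80 from 75.8 ± 7.93 to 41.6 ± 7.46 (SD, n = 5, limma adjusted p = 0.00351), without overlap. Pomc changed by -0.09 (limma adjusted p = 0.837, 95% interval -0.47 to 0.28), so a fall by more than 0.47 lies outside its interval. Th, the dopamine synthesis gene regulated by Nr4a2 in midbrain, did not reach the filter.

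**Figure D5:**
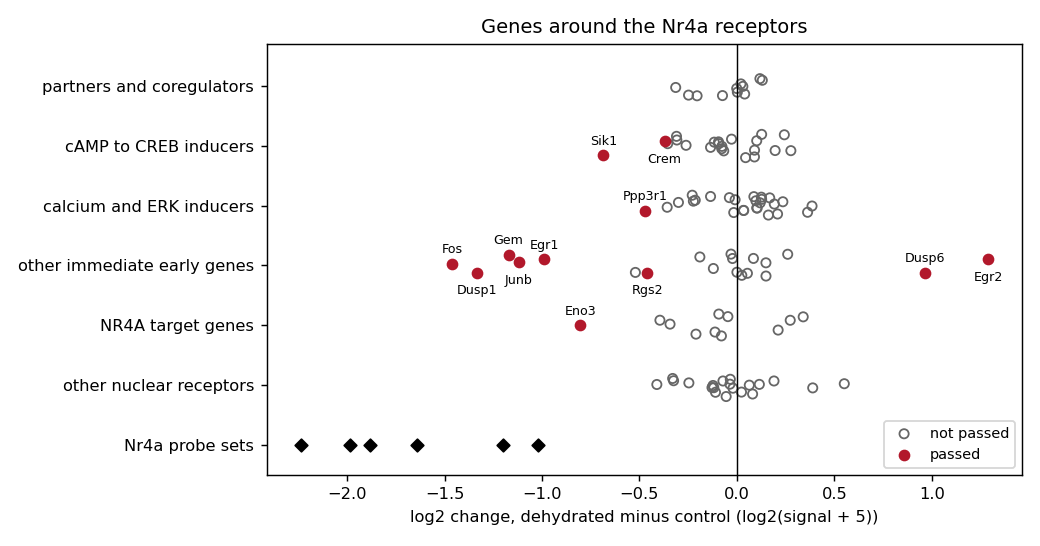
Log2 change, dehydrated minus control, of each measured gene of 6 lists (1 probe set per gene) and of the 6 Nr4a probe sets (black diamonds, shown without a test); filled red points passed at a limma adjusted p under 0.05, open points did not, and height within a row is arbitrary. In the list of other immediate early genes 6 fell and 2 rose, and 0 to 2 genes passed in each of the other 5 lists.

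Likeness of pattern was described by the correlation of log2 values over the 10 arrays with each of 10590 other genes, which mostly reflects the difference between the groups. For Nr4a2 the 5 most alike genes were Dusp1 (r = 0.97), Cdkn2aipnl (0.96), Dyrk3 (0.96), Cmbl (0.95) and Gem (0.94), so that 2 of the 5 are immediate early genes. For Nr4a1 they were Cmbl (0.96), Dyrk3 (0.96), Sun1 (0.96), Cdkn2aipnl (0.95) and Marcksl1 (0.94), whose own changes were small, from -0.17 for Sun1 to -0.58 for Dyrk3. For Nr4a3 they were Pla2g5 (0.96), Ppm1j (0.93), Emd (0.93), Smim14 (0.93) and Gstm4 (0.93), none of them among those of the other members. Under quantile, median or cyclic loess normalization 4 to 5 of the 5 stayed among the 5 for Nr4a2, 2 for Nr4a1 and 2 to 3 for Nr4a3.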

How the data were processed

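RNA from 5 dehydrated and 5 control pools was hybridised to Affymetrix Rat Genome 230 2.0 arrays, 1 array per pool of 5 animals. The deposited table holds 1 linear intensity per probe set and array. The submitters' processing notes list GCOS 1.2. Its algorithm and settings are not given in the sources used here. The authors had scaled the deposited intensities: the mean after trimming 2% at each end was 100 on every array. A change is therefore relative to the average probe set. No detection calls or background values were used, so signal over background is unknown.

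Values were transformed as log2(signal + 5), which understates changes of dim probe sets. The 60% of non-control probe sets with the highest mean over all arrays were kept (18625 of 31042). A probe set was named where the platform annotation gives 1 symbol, and a gene outside the Nr4a family was read by the brightest of its kept probe sets. Group differences came from limma 3.58.1 (R 4.3.3), with moderated variances that follow mean intensity and two-sided p-values adjusted by Benjamini-Hochberg over all kept probe sets. A probe set passed at an adjusted p under 0.05. Steps were tested on simulated data. Correlations between arrays used log2 values with the group mean taken off and exact permutation over all 14400 orders within groups in Python 3.11.15, adjusted over 31 pairs.

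The members, the 6 pathway and 7 marker lists, the tests and the rule for named genes were chosen with earlier results of these data known. The rule named all Nr4a probe sets, then Pomc, Th, Fos, Egr1, Creb1, Crem, Rxra and Mef2d, then up to 4 passing genes per pathway list by size or the one with the smallest p, and the 5 genes most like each member. Th and Rxra had no kept probe set and are not analysed here. Alternatives were pseudocounts of 1 and 16, no filter or the brightest 40%, quantile, median and cyclic loess normalization, a covariate for the 3' to 5' ratio, no trend, a robust variance model, probe sets averaged and arrays left out.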

Additional observations from a re-analysis of the deposited data

Results flagged for a closer look

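In 3 of 56 sets of 5 arrays (2 groups for each probe set, named gene and array measure), 1 array stood apart by Dixon's criterion, which chance gives in about 1 of 20. On the dimmer Nr4a2 probe set, 1387410_at, dehydrated 2 was lowest, with a log2 value of 2.93 against 4.40 to 4.97 on the other 4 dehydrated arrays (gap over range 0.721). Gem was lowest on control 4, the low control of Nr4a1 and Nr4a2 too, at 8.20 against 9.13 to 9.43 (0.762). Ppp3r1 was highest on control 1, at 9.75 against 9.36 to 9.45 (0.782).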

How the results depend on the processing

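The changes of the 6 Nr4a probe sets kept their direction under all 20 alternatives run for them and moved by less than the spread between arrays: from -2.0 to -1.70 for Nr4a1, -2.14 to -1.83 and -2.59 to -1.73 for Nr4a2, and -1.84 to -1.36, -1.15 to -0.83 and -1.53 to -0.72 for Nr4a3 in the order used above. The call of 1393389_at of Nr4a3 was lost under 7 of the 20. The probe sets 1387410_at and 1369217_at were not among the brightest 40%, so they have no call there. The 20 did not hold the fits without a trend, with a robust variance model or with probe sets averaged. Of 458 probe sets that passed in all, 240 passed without an intensity trend, 254 without dehydrated 2 and control 5, 1398 without dehydrated 5 and control 1 (666 higher and 732 lower, an alternative chosen after seeing the data), and 218 to 1163 without 1 array. Of the cAMP to CREB genes 1 passed, in place of 2, with no filter, median centring, the ratio as a covariate, no trend or without dehydrated 2 and control 5, and 1 to 3 without 1 array. Of the calcium and ERK genes 0 passed without a trend or with probe sets averaged, 2 without dehydrated 5 and control 1, and 1 to 2 without 1 array. Of the other immediate early genes 5 passed, in place of 8, without a trend or without dehydrated 2 and control 5. Among the brightest 40% of probe sets 0 of 7 measured NR4A target genes passed, since Eno3 was not kept there. Of the other nuclear receptors 1 passed with median centring, with probe sets averaged or without dehydrated 5 and control 1, and 0 to 1 without 1 array. The cause of these shifts was not tested.

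The 3' to 5' ratio differed between the groups by 0.69 without dehydrated 5 and control 1, where it passed. That pair held the lowest dehydrated and the highest control ratio and was chosen after the data were seen, so nothing is read from it. Some values that had not passed turned sign. Pomc changed by 0.034 without dehydrated 5 (range without 1 array -0.25 to 0.034) and by 0.10 without control 1 as well. The anterior lobe difference was -0.0058 without control 5 (range without 1 array -0.0058 to 0.39) and -0.16 without dehydrated 2 as well. Within groups, the correlation of Nr4a2 with the 3' to 5' ratio was 0.14 without dehydrated 2 and control 5. That of Nr4a3 with the anterior lobe level was then 0.18 (-0.66 to 0.21 without 1 array, positive without control 5). That of Nr4a1 with Nr4a2 was 0.84 after median centring, where it passed. Those of 1369217_at with 1369067_at and 1393389_at were 0.33 and 0.012 without dehydrated 5 and control 1, and -0.54 to 0.27 and -0.39 to 0.15 without 1 array, positive without control 1 or 3.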

Other observations

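With each group's mean taken off, the genes whose deviations were most like those of Nr4a1 over the 10 arrays were the apelin receptor gene Aplnr (r = 0.96), Nap1l4 (0.94), Ubac2 (0.92), Ppat (0.92) and Tap2 (0.91). For Nr4a2 they were Ubac2 (0.92), Rbl2 (0.90), Dusp1 (0.90), Tapbp (0.89) and Plxna4 (0.89), so that Dusp1 was among the 5 most alike both with and without the difference between the groups. For Nr4a3 they were Cflar (0.96), Coq6 (0.95), Ccdc68 (0.94), Rpl7l1 (0.93) and Tyro3 (0.92). Under quantile, median or cyclic loess normalization 2 to 5 of the 5 stayed for Nr4a1, 4 to 5 for Nr4a2 and 2 to 3 for Nr4a3. The deviations of Fos correlated with those of Nr4a2 at 0.80, of Nr4a1 at 0.45 and of Nr4a3 at -0.0040, and those of Junb at 0.62, 0.66 and 0.75. Each value is the most extreme of 10590 genes or a description of 1 gene, over arrays that share the authors' scaling.

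In the 250 bases before the start, 14 of 24 other immediate early genes with a RefSeq window held a half-site of the cAMP response element (58.3%, beside 19.0% of all windows), Dusp1 with 3 and Egr1 with 2. So did 11 of 24 calcium and ERK genes (45.8%) and 7 of 19 cAMP to CREB genes (36.8%), Sik1 and Crem with 2 each, and 5 of 21 NR4A target genes (23.8%), 5 of 27 other nuclear receptors (18.5%) and 1 of 13 partners and coregulators (7.69%). The exact NBRE motif AAAGGTCA was found in 2 of 21 windows of NR4A target genes (9.52%, beside 1.11%), and in neither Pomc nor Eno3. Only this motif in these 250 bases was searched, so NR4A sites of another form or farther away would be missed.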
